A study of Mus musculus with 93 samples.

Results

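The 65 arrays of blood from tumor-bearing MMTV/c-MYC mice, among 93 arrays in all, were divided by the number in their labels into 52 late-numbered and 13 early-numbered arrays and compared. The late group held training arrays 6 to 32 (27 arrays) and validation arrays 9 to 33 (25 arrays), and the early group held training arrays 1 to 5 (5 arrays) and validation arrays 1 to 8 (8 arrays). The division was chosen by control probe sets on the arrays, namely the signal of a poly-A spike-in and the difference between 5' and 3' actin signal, and those values are therefore given as a description without a test. All 65 tumor arrays held blood of MMTV/c-MYC transgenic females of strain FVB/NJ with advanced mammary tumors, and the 28 control arrays (14 training, 14 validation) came from tumor-free wild type females matched for age and parity. The transgene, c-MYC or a more stable point mutant of it, was driven by the hormone-responsive MMTV long terminal repeat, which is active mainly in mammary epithelium, and tumor-bearing and control mice alike were bred continuously. The average age at the last bleed was 431 days. White cells were pelleted from cheek blood after red cell lysis, and RNA was extracted either at once or after storage of the lysed pellet in the cold, by hand or on a robot. Which array received which handling, which of several transgenic lines it came from, and what the numbers record are not given in the sources used here. Spike-in signal, actin signal, numbering and whatever else changed along the numbering went together, so their effects cannot be told apart. The labels do not tie arrays to separate animals, so that p-values measure the spread between these samples.

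Leukocyte RNA was amplified, labelled and hybridised to short oligonucleotides that mostly lie near the 3' end of transcripts. RNA that is broken, or copied incompletely from its tail, gives less signal at the 5' end of a transcript than at the 3' end, and control transcripts such as actin and GAPDH carry separate 5' and 3' probe sets to show it. Poly-A controls are bacterial transcripts that can be added to the RNA before amplification. White blood cells are a mixture of granulocytes, monocytes and lymphocytes with some platelets and young red cells, and their immediate early and stress genes can change between bleeding and lysis.

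The dap spike-in ran from 6.57 to 10.8 (median 8.57) on the log2 scale in the 52 late arrays and from 2.11 to 3.83 (median 2.55) in the 13 early arrays. In the 28 control arrays it lay between 1.74 and 3.55 (median 2.18), with 9 of them below every early array and the others within the early range. The actin 5' minus 3' difference lay between -2 and -1.2 (median -1.4) in early arrays, between -2.3 and -0.4 (median -0.5) in late arrays and between -0.9 and -0.5 (median -0.6) in control arrays. Thus 51 of the 52 late arrays lay above the whole early range, and control arrays shared the missing spike-in with the early arrays but the actin values with the late arrays. At the boundary, training array 5 had a dap signal of 2.21 and an actin difference of -1.5, and training array 6 had 7.33 and -0.4. Validation array 8 had a dap signal of 2.47 and an actin difference of -1.4, and validation array 9 had 10.8 and -0.5. The GAPDH 5' minus 3' difference separated the groups less, with early arrays between -2 and -1 (median -1.3) and late arrays between -3.95 and -0.9 (median -1.2). The 18S ribosomal RNA signal overlapped, with a median of 10.83 in early, 10.55 in late and 9.89 in control arrays.

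Late training array 22 is the exception among late arrays, since it carried the spike-in (dap 8.64) with an actin difference of -2.3 and a GAPDH difference of -3.95, the lowest values of all tumor arrays. Late training array 27 came next, with a dap signal of 8.23, an actin difference of -1.1 and a GAPDH difference of -2.4.

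**Figure D1:**
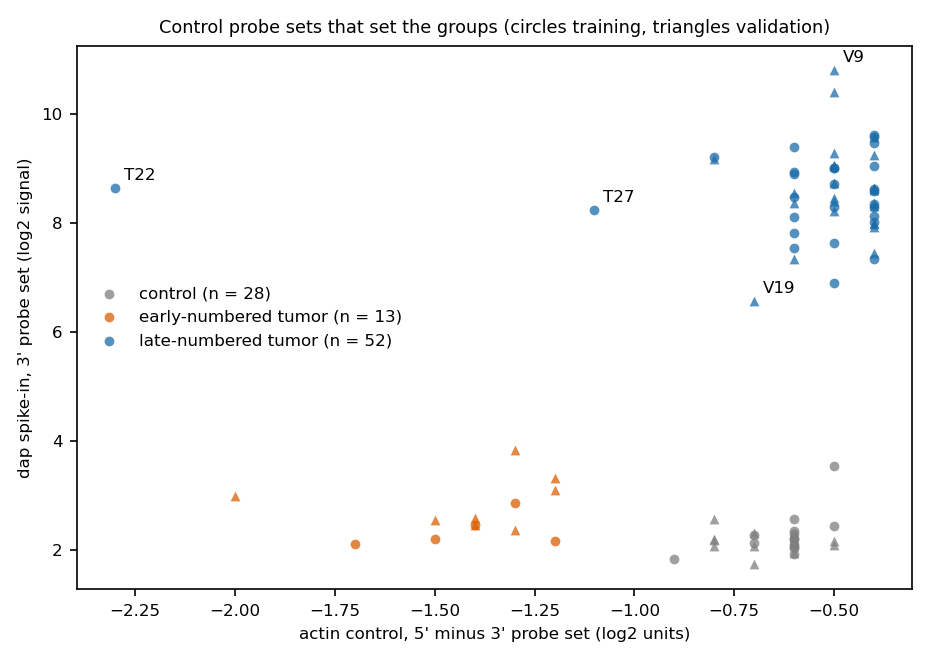
Log2 signal of the dap poly-A spike-in (vertical axis) against the actin 5' minus 3' difference in log2 units (horizontal axis) on every array, with circles for training, triangles for validation and colours for early tumor, late tumor and control arrays (T and V with a number mark training and validation arrays named in the text). All 52 late arrays lay at a dap signal of 6.57 or more, and the early and control arrays at 3.83 or less. Late training array 22 lay at the upper left with an actin difference of -2.3.

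Expression of 15 pan-leukocyte genes was high in all 3 groups, with gene medians between 8.69 and 13.3 in early arrays and between 9.99 and 13.4 in late arrays. Most markers of mammary epithelium and milk were dim, with the middle gene of 23 at 3.63 in early and 3.30 in late arrays. Some were not. The brightest was Ltf, lactoferrin, which neutrophil granules also hold, with a median of 9.76 in early and 10.8 in late arrays (difference 1.09 ± 0.40, adjusted p = 0.014). Krt7, a keratin, had a median of 5.85 in early and 7.36 in late arrays and was higher by 1.29 ± 0.25 (adjusted p = 6.85e-06). Cdh1 (median 6.94 in early and 7.065 in late arrays) and Esr1 (6.15 and 5.95) were not called. Csn2, a casein, was dim, with medians of 2.91 and 2.63, but reached 7.07 in early and 9.17 in late arrays. Its difference was not called (0.35 ± 0.52, adjusted p = 0.569). Of the 23 genes 3 were called higher and 6 lower, with Pgr (-0.79), Krt14 (-0.70) and Krt5 (-0.59) among the lower. The mammary genes named here were picked after their values were seen.

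Late validation arrays 19 and 9 had the lowest mean correlation with the other tumor arrays among late arrays (0.902 and 0.931, against 0.951 or more in the others). Among early arrays the lowest were validation array 2 (0.917), training array 4 (0.931) and validation array 6 (0.934). In late validation array 19 the mean of the T cell markers was 10.5 against 7.99 to 10.0 in 50 other late arrays, that of NK markers was 9.33 against 6.97 to 8.65, and that of cell cycle genes was 8.20 against 6.15 to 6.89. Its monocyte markers averaged 7.70 against 9.68 to 10.8 and its platelet markers 7.62 against 11 to 12.7. In late validation array 9 erythroid markers averaged 11.4 against 8.20 to 10.8 and nucleolar genes 7.27 against 7.80 to 8.59. Without late validation arrays 9 and 19, the number of probe sets called was 30846, and results that moved are given with their values.

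Between late and early arrays, 29466 of 45037 probe sets (65.4%) differed with cohort as a covariate (limma, Benjamini-Hochberg adjusted p below 0.05). Of these 11671 (25.9%) were higher and 17795 (39.5%) lower in late arrays, and in 4718 the size of the difference was over 1 (log2), or 2-fold. The training cohort alone gave 22961 probe sets (51%) and the validation cohort alone 23040 (51.2%). The paper divided its samples into these cohorts at random, so agreement between them is not a repeat in a separate experiment. The difference between cohorts in the late minus early difference was called for 90 probe sets (0.2%). Between the control arrays of both cohorts, limma called 0 probe sets, and 3093 had an unadjusted p below 0.05. The direction of the call followed the signal level. When probe sets were ranked by level into 10 equal bins, 80.7% of the dimmest bin were lower and 0.155% higher in late arrays, whereas above the median level 44.8% were higher and 24.6% lower. In the brightest bin the balance was more even, with 41.3% higher and 33.5% lower. Each gene of a list is therefore read against genes of ordinary level: of 10628 genes brighter than the middle probe set (above-median genes), 5116 (48.1%) were higher and 2621 (24.7%) lower, with a median difference of 0.27, while the median of all 18193 genes was -0.08. All 52 late arrays lay above all 13 early arrays in 346 of the 10628 genes (3.26%) and below them in 87 (0.819%).

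**Figure D2:**
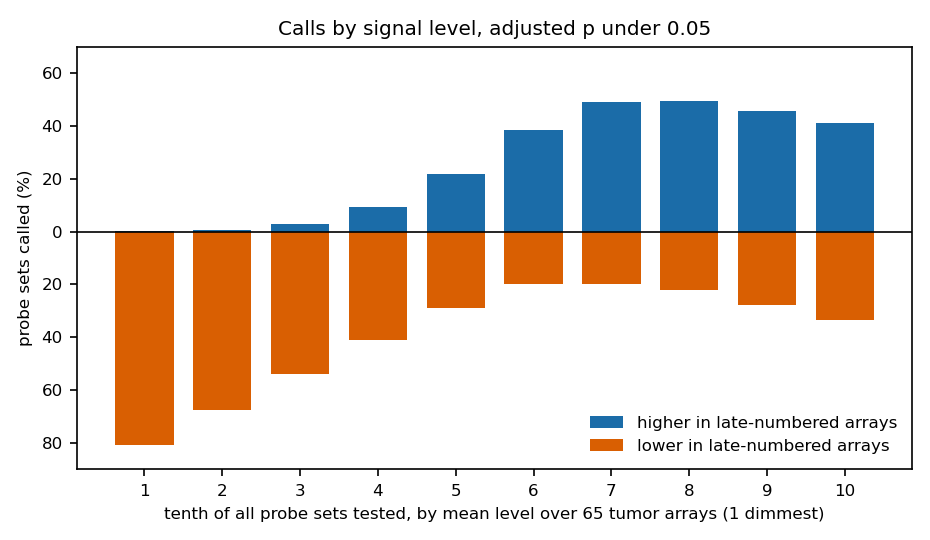
Percent of probe sets called higher (bars upward from 0) or lower (bars downward from 0) in late than in early arrays, in 10 equal bins of mean log2 level over 65 tumor arrays from dimmest to brightest. Lower calls fell from 80.7% in the dimmest bin to 19.7% in the sixth, and higher calls rose from 0.155% to 49.5% in the eighth. In the brightest bin 33.5% were lower and 41.3% higher.

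The highest list medians belonged to the phagocyte NADPH oxidase (1.2), mitochondrial ribosomal proteins (0.995), neutrophil granule genes (0.91), aminoacyl-tRNA synthetases (0.87), glycolysis and pentose phosphate genes (0.81) and T cell genes (0.80). Of 49 gene lists, 26 had a median above the 0.27 of above-median genes and 10 had a median below 0. In 4 lists (the phagocyte NADPH oxidase, proteasome subunits, respiratory complexes II to V, and pan-leukocyte genes) the mean of the list in every late array was above that in every early array. No set test was made, since the lists were chosen with earlier results of these data known, and list values are descriptions. The actin difference, used below as a covariate, helped set the groups, and 51 late arrays lay above the whole early range of it. Components of the endogenous control probe sets, also used as covariates, include the actin probe sets. Calls lost or signs turned with these covariates therefore do not tell RNA handling from the grouping itself.

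**Figure D3:**
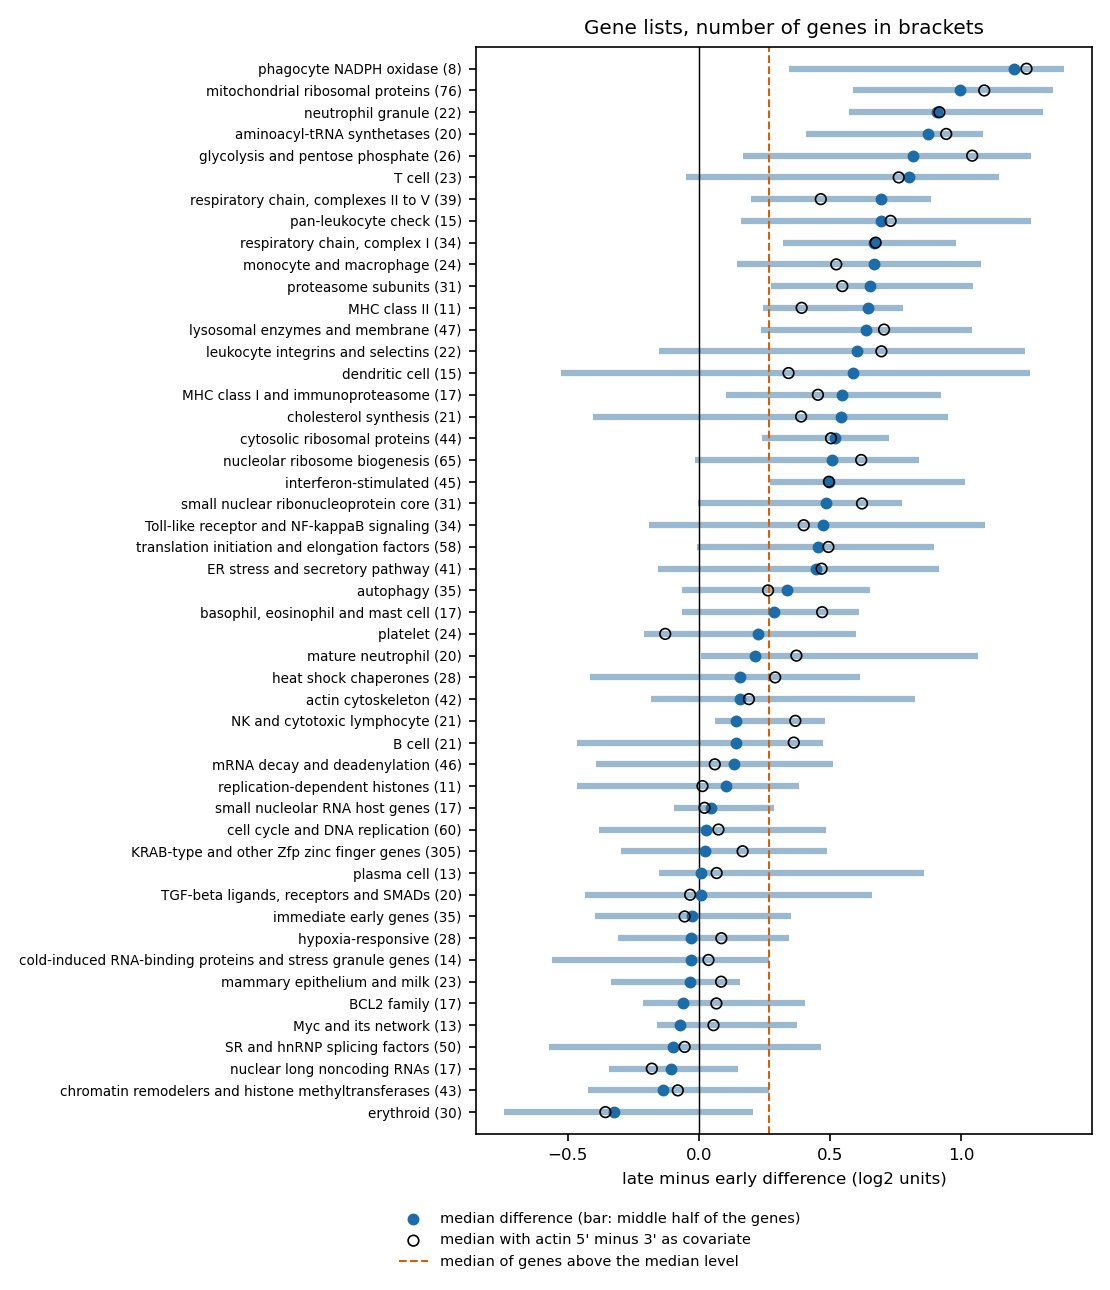
Median late minus early difference (log2 units) of the genes of each of 49 lists, with a bar for the middle 50% of its genes, and an open circle for the median with the actin difference as a covariate. The phagocyte NADPH oxidase (1.2) and mitochondrial ribosomal proteins were at the top and erythroid genes (-0.33) at the bottom, and the dashed line marks the 0.27 of above-median genes.

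Mitochondrial ribosomal proteins, which translate the few messages of the mitochondrial genome, were higher in late arrays in 66 of 76 genes and lower in 4, with a mean that went from 7.54 in early arrays to 8.47 in late arrays and lay at 8.28 in control arrays. Mrps14, a small subunit protein, ran from 6.54 to 8.07 (median 7.38) in early and from 7.95 to 10.0 (median 9.15) in late arrays, a difference of 1.78 ± 0.11 (SE; adjusted p = 3.91e-23). Mrpl4, of the large subunit, ran from 4.62 to 6.77 in early and from 6.82 to 8.76 in late arrays, without overlap, and differed by 1.86 ± 0.12 (adjusted p = 8.16e-22). Mrpl20 was higher by 1.47 ± 0.089 (adjusted p = 3.85e-23). In the same direction moved 16 of 20 aminoacyl-tRNA synthetases, which load amino acids onto tRNAs (2 were lower, median 0.87), among them Farsa, the alpha subunit of the phenylalanine enzyme, at 1.74 ± 0.13 (adjusted p = 9.56e-19).

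Cytosolic ribosomal proteins, among the brightest genes of the arrays, were higher in 34 of 44 and lower in 3, with a median of 0.52. Rpl19, a large subunit protein, ran from 11.1 to 12.2 (median 11.8) in early arrays, from 13 to 14 (median 13.5) in late arrays and from 12.7 to 13.6 (median 13.4) in control arrays. Late and early arrays did not overlap, and the difference was 1.72 ± 0.068 (adjusted p = 8.48e-33). Rplp0, of the ribosomal stalk, was higher by 1.62 ± 0.054 (adjusted p = 1.14e-36), with control arrays between 12.2 and 13.1 against 11.1 to 11.6 in early and 12.5 to 13.5 in late arrays. For Rplp2, another stalk protein, the values were 12.9 to 13.6 in early and 13.8 to 14.4 in late arrays, a difference of 0.76 ± 0.041 (adjusted p = 9.84e-26). Translation factors were higher in 37 of 58 and lower in 10 (median 0.45), including Eif3d, a subunit of the eIF3 initiation complex, at 2.06 ± 0.10 (adjusted p = 2.34e-27). Genes of nucleolar ribosome assembly were split, with 38 of 65 higher and 13 lower (median 0.51). Nob1, an endonuclease of 18S rRNA maturation, was higher by 1.89 ± 0.14 (adjusted p = 1.18e-18), whereas Rrs1, which assembles large subunits, ran from 9.44 to 10.5 in early and from 7.76 to 9.67 in late arrays and fell by 1.31 (SE 0.11; adjusted p = 1.21e-16). The late arrays lay below all early arrays in 50 of 52 for Rrs1, and control arrays lay between 9.98 and 10.7.

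Energy metabolism went the same way. Of respiratory complex I genes 26 of 34 were higher and 4 lower (median 0.67), and of complexes II to V 29 of 39 were higher and 4 lower (median 0.69). Cox6b1, a subunit of cytochrome c oxidase, ran from 10.3 to 11.5 (median 10.9) in early arrays, from 12.3 to 13 (median 12.6) in late arrays and from 11.8 to 12.5 (median 12.2) in control arrays. Its groups did not overlap, and late arrays were higher by 1.76 ± 0.066 (adjusted p = 3.37e-34). Atp5g1, which encodes the c subunit of the ATP synthase ring, ran from 7.23 to 8.48 in early and from 9.27 to 10.9 in late arrays and was higher by 2.10 ± 0.097 (adjusted p = 3.49e-29). Ndufb3, an accessory complex I subunit, was higher by 1.87 ± 0.078 (adjusted p = 1.55e-31). Glycolysis and pentose phosphate genes were higher in 17 of 26 and lower in 3 (median 0.81), with Aldoa, an aldolase, at 11.1 to 12.3 in early and 12.6 to 13.3 in late arrays (difference 1.46 ± 0.059, adjusted p = 2.77e-32). The lists have no lengths attached here, so short transcripts could not be set against long ones.

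Among 8 promoters of genes of these lists, 4 are shown because the 250 bases before their start hold at least one of 2 motifs searched on both strands across RefSeq promoters (GRCm38.p6), CCGGAAG, an ETS-type motif, and CACGTG, the E-box that Myc with Max can bind. Capitals mark the motif on the strand shown. Rpl19 lies at chr11:98026460-98026709 on the plus strand, Rplp2 at chr7:141447401-141447650 on the plus strand, Cox6b1 at chr7:30626115-30626364 on the minus strand and Atp5g1 at chr11:96075632-96075881 on the minus strand, all given 5' to 3'.
Rpl19: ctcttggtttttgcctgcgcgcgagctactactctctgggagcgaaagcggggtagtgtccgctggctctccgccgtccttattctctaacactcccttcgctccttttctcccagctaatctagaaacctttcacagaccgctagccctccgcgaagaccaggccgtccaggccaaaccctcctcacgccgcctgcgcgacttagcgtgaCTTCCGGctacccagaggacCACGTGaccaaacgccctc
Rplp2: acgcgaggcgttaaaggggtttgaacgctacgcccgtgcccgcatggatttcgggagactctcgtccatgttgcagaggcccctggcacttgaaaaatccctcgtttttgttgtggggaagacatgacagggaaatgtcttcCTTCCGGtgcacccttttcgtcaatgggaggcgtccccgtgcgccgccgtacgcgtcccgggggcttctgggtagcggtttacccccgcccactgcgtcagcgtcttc
Cox6b1: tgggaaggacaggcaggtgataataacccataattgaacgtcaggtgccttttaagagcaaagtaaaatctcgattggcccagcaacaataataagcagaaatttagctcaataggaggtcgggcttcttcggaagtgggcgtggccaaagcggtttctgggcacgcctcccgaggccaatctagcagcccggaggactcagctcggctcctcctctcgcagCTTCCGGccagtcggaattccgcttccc
Atp5g1: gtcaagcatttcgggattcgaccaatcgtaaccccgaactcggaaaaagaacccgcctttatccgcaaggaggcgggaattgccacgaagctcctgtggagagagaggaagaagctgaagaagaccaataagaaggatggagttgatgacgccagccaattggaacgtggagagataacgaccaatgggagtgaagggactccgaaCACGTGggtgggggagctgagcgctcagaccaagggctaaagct
Rpl19 holds both motifs, Rplp2 and Cox6b1 CCGGAAG alone and Atp5g1 CACGTG alone, and the promoters of Rplp0, Rpl11, Atp5d and Uqcrc1 held neither. CCGGAAG occurred in 1906 of 27025 promoters (7.05%), in 15 of 39 of cytosolic ribosomal proteins (38.5%), in 16 of 67 of mitochondrial ribosomal proteins (23.9%), in 3 of 31 of complex I (9.68%), in 8 of 31 of complexes II to V (25.8%), in 8 of 25 of the proteasome (32%), in 8 of 45 of splicing factors (17.8%), in 2 of 30 of immediate early genes (6.67%) and in 0 of 20 of neutrophil granule genes. CACGTG occurred in 1634 promoters (6.05%), in 3 of 39 of cytosolic ribosomal proteins, and in 7 of 30 of immediate early genes (23.3%). A match describes the letters in the window and shows no binding.

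Proteasome subunits were higher in 26 of 31 and lower in 2 (median 0.65), with Psmb2, a beta subunit, at 7.04 to 8.66 (median 8.37) in early and 9.52 to 11.4 (median 10.3) in late arrays and a difference of 2.19 ± 0.11 (adjusted p = 1.02e-26). Lysosomal genes were higher in 36 of 47 and lower in 2 (median 0.64). Ctsd, the protease cathepsin D, was at 10.5 to 11.4 in early, 12.1 to 12.8 in late and 11.3 to 12.0 in control arrays, and its late arrays lay above both other groups (difference 1.45 ± 0.06, adjusted p = 5.14e-32). Endoplasmic reticulum stress and secretory genes were higher in 23 of 41 and lower in 10 (median 0.45), including Ddit3, the stress transcription factor CHOP, at 1.96 ± 0.12 (adjusted p = 1.22e-22) and the disulfide isomerase Pdia4 at 2.11 ± 0.14 (adjusted p = 9.78e-21). Cholesterol synthesis genes were higher in 14 of 21 and lower in 6 (median 0.54), and autophagy genes in 18 and 6 of 35 (median 0.34).

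Most genes of the NADPH oxidase, neutrophil granule and monocyte lists were higher in late arrays. Those of mature neutrophils were higher in 9 of 20 (45%) and lower in 1 (5%), with a median of 0.21. Above-median genes were near this in the share higher (48.1%) and the median (0.27), but more of them were lower (24.7%). In bulk blood, a larger share of a cell type and more RNA per cell cannot be told apart. The NADPH oxidase, which makes superoxide in phagocytes, was higher in 7 of 8 genes and lower in 0 (median 1.2). Cyba, its p22phox membrane subunit, ran from 8.86 to 10.4 (median 9.76) in early, from 11.6 to 12.7 (median 12.1) in late and from 10.9 to 11.6 (median 11.2) in control arrays. Early arrays lay below both other groups, and late arrays were higher than early arrays by 2.49 ± 0.096 (adjusted p = 1.34e-33). Neutrophil granule genes were higher in 18 of 22 and lower in 0 (median 0.91), with a mean of 8.68 in early, 9.63 in late and 8.86 in control arrays, and 11 of 22 were called higher with the actin difference as a covariate. Camp, the antimicrobial peptide of secondary granules, was among the most variable, running from 6.27 to 11.6 (median 8.85) in early and from 9.51 to 14 (median 11.6) in late arrays, and differed by 2.53 ± 0.36 (adjusted p = 7.37e-09). Its groups overlapped, with 24 of 52 late arrays above all early arrays. Hp, haptoglobin, was higher by 1.47 ± 0.14 (adjusted p = 5.56e-14), and Lyz2, lysozyme, by 0.47 ± 0.053 (adjusted p = 6.57e-12). With the first 3 components of the endogenous control probe sets as covariates, the median of neutrophil granule genes turned to -1.07 and that of mature neutrophil genes to -0.49.

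Monocyte and macrophage genes were higher in 17 of 24 and lower in 1 (median 0.67), and in 8 and 2 with the actin covariate. Itgam, the alpha chain of the CD11b integrin, ran from 5.62 to 7.44 (median 6.03) in early, from 5.63 to 9.71 (median 8.47) in late and from 5.75 to 7.72 (median 6.98) in control arrays. Of the late arrays 51 lay above all early arrays, and the difference was 2.08 ± 0.20 (adjusted p = 4.33e-14). Cd68, a lysosomal glycoprotein of macrophages, was higher by 1.61 ± 0.16 (adjusted p = 2.26e-14), and Cd14, the co-receptor for lipopolysaccharide, by 1.42 ± 0.22 (adjusted p = 6.24e-08), although Cd14 turned to -0.38 with the 3 control components. Without late validation arrays 9 and 19 the monocyte median was 0.80. Leukocyte integrins and selectins were higher in 14 of 22 and lower in 5 (median 0.60), with Itgb2, the shared beta chain, at 10.8 to 11.5 in early and 11.7 to 12.5 in late arrays (difference 1.07 ± 0.055, adjusted p = 6.25e-27) and Fermt3, an adaptor that activates integrins, higher by 1.92 ± 0.12 (adjusted p = 4.6e-23). Genes of Toll-like receptor and NF-kappaB signaling were higher in 19 of 34 and lower in 7 (median 0.47).

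The lymphocyte lists were mixed. T cell genes were higher in 13 of 23 and lower in 5 (median 0.80, and 0.76 without late validation arrays 9 and 19). Lat, an adaptor of the T cell receptor, ran from 8.52 to 9.73 in early and from 9.15 to 11.6 in late arrays and was higher by 1.31 ± 0.15 (adjusted p = 1.3e-11). Ccr7, the homing receptor of naive T cells, was higher by 1.45 ± 0.22 (adjusted p = 6.9e-08). B cell genes were higher in 6 of 21 and lower in 4 (median 0.14), and the mean of the list was 8.35 in both early and late arrays and 9.33 in control arrays. Ebf1, a transcription factor of the B lineage, ran from 8.77 to 11.1 (median 10.4) in early, from 5.78 to 10.3 (median 8.53) in late and from 9.11 to 10.6 (median 9.91) in control arrays, and fell by 1.75 (SE 0.26; adjusted p = 2.43e-08). Tnfrsf13c, the receptor for BAFF, fell by 1.69 (SE 0.25; adjusted p = 2.61e-08), whereas Cxcr5, the homing receptor of follicular B cells, was higher by 1.27 ± 0.25 (adjusted p = 1.34e-05). With the 3 control components Ebf1 turned to 0.63 and Tnfrsf13c to 0.10. Both falls and the rise came from a list whose late arrays ranged from 6.40 to 9.58 and so spread more widely than the difference between groups.

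NK and cytotoxic genes were higher in 6 of 21 and lower in 1 (median 0.14). Prf1, the pore-forming perforin, ran from 6.78 to 8.44 in early and from 8.10 to 9.44 in late arrays and was higher by 1.19 ± 0.089 (adjusted p = 4.87e-19). Gzmb, the protease granzyme B, was higher by 1.12 ± 0.31 (adjusted p = 0.00115), with a top value of 13 in late validation array 19, and by 0.98 without late validation arrays 9 and 19. Plasma cell genes were split, with 5 of 13 higher and 3 lower (median 0.01), and dendritic cell genes were higher in 8 of 15 and lower in 5 (median 0.59). Basophil, eosinophil and mast cell genes were higher in 7 of 17 and lower in 1 (median 0.29).

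MHC class II genes, which present peptides to helper T cells, were higher in 8 of 11 and lower in 1 (median 0.65). With the actin covariate 3 were called higher, and 3 were called higher in both cohorts. Cd74, the invariant chain, ran from 10.7 to 12.5 in early, from 11 to 13.7 in late and from 12.8 to 13.7 in control arrays and was higher by 1.2 ± 0.16 (adjusted p = 1.86e-09). H2-Ob, a chain of the nonclassical H2-O molecule of B cells, fell by 1.05 (SE 0.25; adjusted p = 0.000211), lost the call with the actin covariate at -0.86, and turned to 0.24 with the 3 control components. MHC class I and immunoproteasome genes were higher in 12 of 17 and lower in 1 (median 0.54), with the interferon-inducible subunit Psmb9 at 8.68 to 9.45 in early and 9.80 to 11.9 in late arrays (difference 1.64 ± 0.11, adjusted p = 1.04e-20). Interferon-stimulated genes were higher in 26 of 45 and lower in 4 (median 0.50), and Irf7, a regulator of type I interferon genes, ran from 5.73 to 7.29 in early and from 7.73 to 9.98 in late arrays, higher by 1.99 ± 0.13 (adjusted p = 9.8e-22). Genes of TGF-beta ligands, receptors and SMADs were higher in 9 of 20 and lower in 8 (median 0.01), with the ligand Tgfb1 itself higher by 1.87 ± 0.13 (adjusted p = 3.73e-20).

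Erythroid genes were the list with the lowest median, at -0.33, and 12 of 30 were lower and 3 higher. The cohorts differed, with a median of -0.52 (17 lower, 1 higher) in training and -0.12 (7 lower, 4 higher) in validation. In the validation cohort other lists lay lower, among them nuclear long noncoding RNAs at -0.22. The globins disagreed. Hbb-b2, a beta globin, ran from 11.9 to 13.5 in early and from 10.7 to 12.6 in late arrays and fell by 0.67 (SE 0.12; adjusted p = 9.22e-07), while Hba-a2, an alpha globin, ran from 10.0 to 11.1 in early and from 10.1 to 12.5 in late arrays and was higher by 1.21 ± 0.10 (adjusted p = 1.7e-16). Near-identical globin genes share probes, so neither value can be given to 1 gene with certainty. Hbb-b2 lost the call with the actin covariate at -0.40 and turned to 0.63 with the 3 control components. Hemgn, a nuclear protein of red cell precursors, fell by 1.76 (SE 0.34; adjusted p = 6.39e-06). Platelet genes were higher in 7 of 24 and lower in 2 (median 0.23), in 13 and 6 without late validation arrays 9 and 19, and the median turned to -0.13 with the actin covariate. Gp9, a chain of the von Willebrand factor receptor, was higher by 0.99 ± 0.21 (adjusted p = 3.08e-05), a call lost with the actin covariate at 0.44, whereas Itgb3, the beta chain of the fibrinogen receptor, fell by 0.66 (SE 0.17; adjusted p = 0.000494). A dimmer probe set of Itgb3 was higher by 1.42 ± 0.26 (adjusted p = 3.34e-06). Mammary genes were higher in 3 of 23 and lower in 6 (median -0.03), and only 5 of the 23 were above the median level.

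Immediate early genes, which respond to blood handling within minutes, went both ways, with 8 of 35 higher (22.9%) and 14 lower (40%) and a median of -0.03. Above-median genes were higher in 48.1% and lower in 24.7%, with a median of 0.27, so the list lay lower than these. With the actin covariate 7 immediate early genes were higher and 5 lower. Ier2, an early response gene, ran from 4.69 to 7.05 (median 6.02) in early, from 7.28 to 8.44 (median 8) in late and from 6.30 to 7.47 (median 6.89) in control arrays. Late and early arrays did not overlap, and the difference was 2.02 ± 0.13 (adjusted p = 1.74e-21). Klf2, a transcription factor of quiescent leukocytes, was higher by 1.26 ± 0.10 (adjusted p = 7.96e-18). Egr1, the growth-response zinc finger factor, went the other way, from 8.71 to 10.2 (median 9.16) in early to 6.96 to 8.61 (median 7.83) in late arrays, with control arrays at 7.74 to 9.13 (median 8.47). All 52 late arrays lay below all early arrays, and Egr1 fell by 1.48 (SE 0.13; adjusted p = 3.39e-16). Heat shock chaperones were higher in 11 of 28 and lower in 8 (median 0.16), with Cct7, a chaperonin subunit, higher by 1.33 ± 0.11 (adjusted p = 1.75e-17) and Dnajb1, an inducible co-chaperone, which fell by 0.90 (SE 0.082; adjusted p = 2.88e-15). Cold-induced and stress granule genes were higher in 4 of 14 and lower in 6 (median -0.03). Genes of mRNA decay were higher in 19 of 46 and lower in 17 (median 0.13), among them Cnot7, a deadenylase, which fell by 1.18 (SE 0.074; adjusted p = 1.22e-22), and Lsm3, of the decapping complex, which was higher by 1.34 ± 0.11 (adjusted p = 2.13e-17). Hypoxia-responsive genes were higher in 6 of 28 and lower in 8 (median -0.03), and BCL2 family genes in 5 and 4 of 17 (median -0.06).

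**Figure D4:**
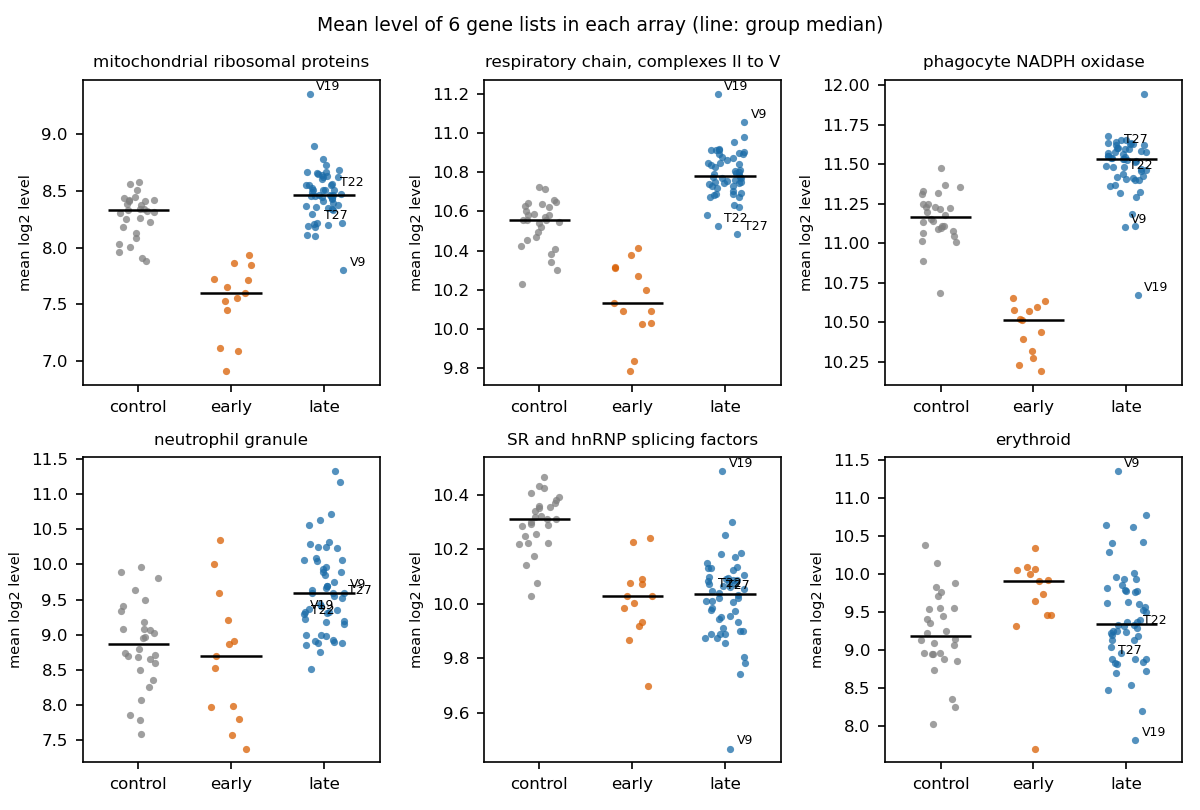
Mean log2 signal of the genes of 6 lists on every array, in columns for control, early tumor and late tumor arrays, with a line at each group's median. Early arrays lay lowest in the lists of mitochondrial ribosomal proteins and the NADPH oxidase, with the control median between the medians of both tumor groups, while the list of splicing factors overlapped in all 3 groups.

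Most lists of nuclear RNA processing and chromatin had a median below the 0.27 of above-median genes, of which 48.1% were higher and 24.7% lower. These genes are not matched in level to the lists. In late arrays splicing factors averaged 10.0 and chromatin genes 9.29, against 8.31 for above-median genes. In the brightest of the 10 bins of probe sets, 41.3% were higher and 33.5% lower, with a median of 0.056. SR and hnRNP splicing factors were higher in 18 of 50 (36%) and lower in 21 (42%), with a median of -0.10. Their mean was 10.0 in early, 10.0 in late and 10.3 in control arrays. Ptbp3, a repressor of splice sites, ran from 12.8 to 13.2 in early and from 12.1 to 12.7 in late arrays and fell by 0.66 (SE 0.045; adjusted p = 9.51e-21), whereas Clk3, a kinase of SR proteins, was higher by 1.46 ± 0.08 (adjusted p = 1.99e-25). The core of small nuclear ribonucleoproteins differed from these in counts, with 20 of 31 higher and 4 lower (median 0.48), and Snrpd3, a Sm protein, higher by 1.49 ± 0.11 (adjusted p = 4.76e-19). Chromatin remodelers and histone methyltransferases were lower in 19 of 43 (44.2%) and higher in 11 (25.6%), with a median of -0.14. The acetyltransferase Crebbp lay at 11.9 to 12.6 in early and 10.9 to 11.8 in late arrays, a change of -0.69 (SE 0.06; adjusted p = 3.85e-16). Nuclear long noncoding RNAs were higher in 3 of 17 and lower in 7 (median -0.11), although Neat1, the scaffold of paraspeckles, was higher by 0.75 ± 0.13 (adjusted p = 5.14e-07). Small nucleolar RNA host genes were higher in 4 of 17 and lower in 4 (median 0.05). Replication-dependent histones, whose messages lack a poly-A tail, were higher in 3 of 11 and lower in 3 (median 0.10), with H2bc21 falling by 1.37 (SE 0.11; adjusted p = 5.45e-17). Zinc finger genes, the largest list, were higher in 108 of 305 and lower in 88 (median 0.02). Actin cytoskeleton genes were higher in 20 of 42 and lower in 11 (median 0.16).

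Myc, which the transgene also encodes, is measured by 1 probe set in these arrays, and a mouse probe may read both copies. By RT-PCR the paper found little to no c-MYC transcript in blood cells of the transgenic mice, compared with their mammary tumors. After another normalisation, it also reported no significant difference in Myc array signal between its mouse groups, which were not divided by array number. Which copy gave the signal here was not tested. Myc ran from 4.46 to 7.76 (median 6.47) in early arrays, from 7.25 to 12.0 (median 8.76) in late arrays and from 6.59 to 9.06 (median 7.86) in control arrays. Of the late arrays 44 of 52 lay above all early arrays, and the top value of 12.0 was in late validation array 19. Late arrays were higher by 2.16 ± 0.26 (adjusted p = 4.12e-11), by 1.89 in the training and 2.35 in the validation cohort, and by 2.11 without late validation arrays 9 and 19. In the Myc network 4 of 13 genes were higher (30.8%, against 48.1% of above-median genes) and 3 lower, with a median of -0.07. Mxd4, an antagonist of Myc, was higher by 1.22 ± 0.11 (adjusted p = 6.66e-16). Mga, a Max partner, was lower at -0.88 (SE 0.084; adjusted p = 1.73e-14) in its brightest probe set, while another gave 1.475. Cell cycle genes were higher in 17 of 60 and lower in 17 (median 0.03), with 8 higher and 23 lower in the training cohort and 17 higher and 6 lower in the validation cohort. Mcm4, a subunit of the replicative helicase, fell by 1.72 (SE 0.11; adjusted p = 3.68e-22), and Rfc2, of the clamp loader, was higher by 1.16 ± 0.076 (adjusted p = 1.34e-21).

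**Figure D5:**
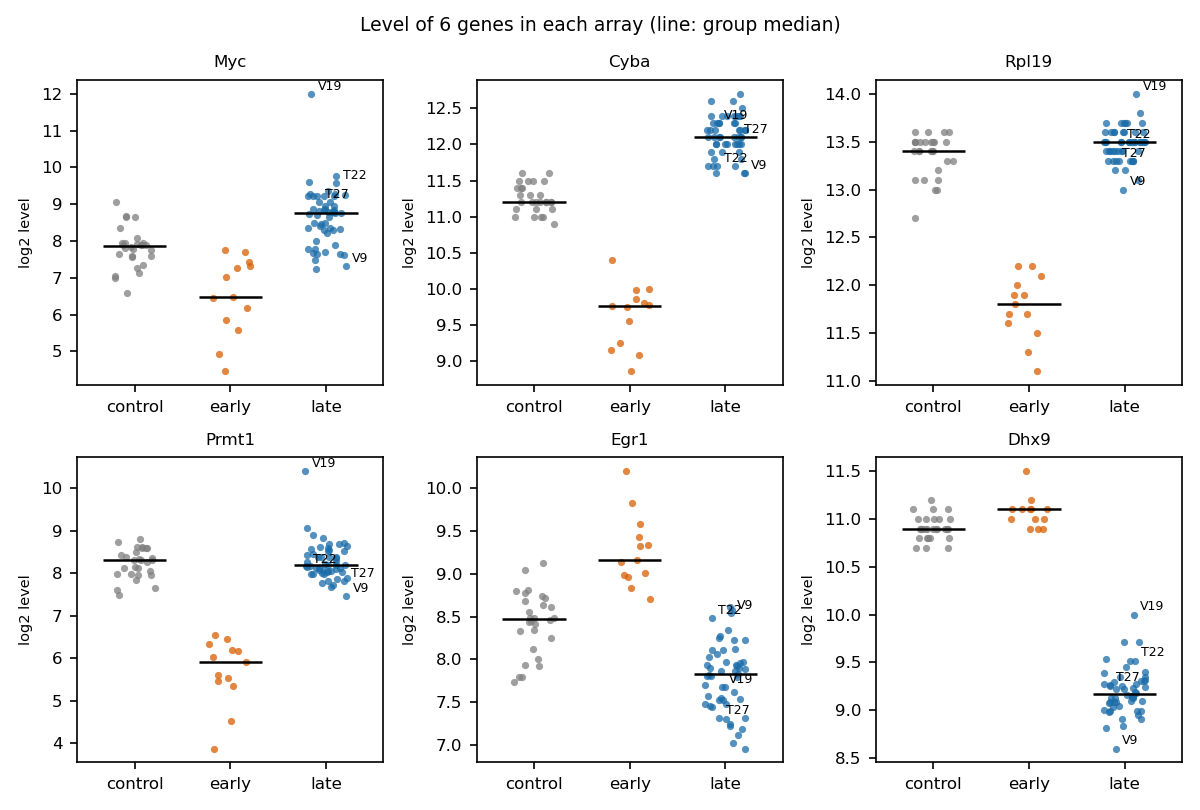
Log2 signal of Myc, Cyba, Rpl19, Prmt1, Egr1 and Dhx9 on every control, early tumor and late tumor array, with a line at each group's median. Early arrays lay below both other groups for Cyba, whose control arrays ran from 10.9 to 11.6, while for Dhx9 the control arrays (10.7 to 11.2) lay with the early arrays and above all late arrays.

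The single largest changes, among genes above the median level that were called in both cohorts, were ranked by the mean of both cohorts' differences. The 12 rises were not gathered in 1 list. Mpst, a sulfurtransferase, ran from 3.95 to 5.33 in early and from 6.33 to 10.5 in late arrays and was higher by 3.23 ± 0.19 (adjusted p = 5.74e-24). Ppp4c, the catalytic subunit of protein phosphatase 4, was higher by 2.76 ± 0.15 (adjusted p = 6.89e-26), and Gnb2, a G protein beta subunit, by 2.68 ± 0.13 (adjusted p = 1.09e-28). Prmt1, the main arginine methyltransferase, ran from 3.87 to 6.55 (median 5.91) in early, from 7.45 to 10.4 (median 8.18) in late and from 7.48 to 8.81 (median 8.31) in control arrays, and its early arrays lay below both other groups. The other rises were Ly6g6c at 2.78, St3gal4 at 2.69, Stn1 at 2.61, Klf5 and Mydgf at 2.59, Bcat2 at 2.56, and Camp and Cyba as given. Other probe sets of Mydgf were called lower (-1.19 and -1.13). Of the 12 falls, Fam160b2 led at -2.29 (SE 0.15; adjusted p = 2.65e-22). Dhx9, an RNA helicase, ran from 10.9 to 11.5 (median 11.1) in early, from 8.6 to 10.0 (median 9.17) in late and from 10.7 to 11.2 (median 10.9) in control arrays, and fell by 1.88 (SE 0.077; adjusted p = 3.51e-32). Htatsf1, a splicing and elongation factor, fell by 1.85 (SE 0.11; adjusted p = 7.72e-23), with control arrays between 9.59 and 10.4. The further falls were AA386476 at -2.06, Bmp2 at -2.13, Ces2g at -2.00, Atp2b4 at -1.99, Ankrd10 at -1.84, 5830448L01Rik at -1.83, Gas2l3 and Riok2 at -1.81, and Hemgn at -1.76.

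Control arrays show which groups a rise separates. Among the 3743 above-median genes called higher in late arrays in both cohorts, the control mean lay nearer the late mean in 2564 (68.5%), between both means in 2963 and above the late mean in 631. Among the 1626 genes called lower, it lay nearer the late mean in 645 (39.7%) and nearer the early mean in 981. Early arrays lay below every late and every control array in 117 of 10628 genes (1.1%), among them 4 of 44 cytosolic ribosomal protein genes, 4 of 39 of complexes II to V, 3 of 34 of complex I, 3 of 58 translation factors and 3 of 42 actin cytoskeleton genes. Early arrays lay above both groups in 29 genes (0.273%). Late arrays lay above both other groups in 17 genes (0.16%) and below in 5 (0.047%). The 5 below were Chtop, Dhx9, Htatsf1, Ing5 and Tvp23b. Control arrays alone lay above both tumor groups in 3 genes (0.0282%), Acyp1, Ecd and Nfkbie, and below in 0. The groups differ in size (13 early, 52 late and 28 control arrays), so these counts do not rank them. Of the genes in this paragraph, Chtop, Ing5, Tvp23b, Acyp1, Ecd and Nfkbie were named after their values were seen.

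Late training array 22 is a single array at a low actin difference. With the spike-in of a late array and the lowest actin and GAPDH differences of all tumor arrays, it lay above every early array in 16 of the 17 lists in which 46 or more late arrays did. The exception was interferon-stimulated genes (8.57 against an early maximum of 8.65). Array 22 counts among the late arrays by which these lists were picked. It also entered the calls and the late mean used next, so its nearness to late arrays was partly set in advance. Of the genes called in both cohorts, it lay nearer the late than the early mean in 83% of those higher and 66.4% of those lower in late arrays, and among the falls the other late arrays lay between 60.9% (validation array 19) and 98.8%. It held 13.5 for Rpl19, 11.7 for Cyba, 8.14 for Prmt1, 9.58 for Myc, 8.48 for Egr1 and 9.52 for Dhx9. Each value lay outside the early range. Except for Myc, that held for every late array, among them array 22. By contrast it fell in the early range for Btg2, an antiproliferative early gene (7.60 against 7.42 to 9.12 in early and a late median of 10.1), for St3gal4, a sialyltransferase (5.20 against 2.98 to 6.72), for the proteasome activator Psme1 (10.2 against 9.29 to 10.3), for Riok2, a ribosome assembly kinase (8.59 against 7.60 to 10.4), and for Snhg8, a snoRNA host (9.53 against 9.12 to 10.5).

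Within the 52 late arrays, the slope of expression on the actin difference was called for 5278 of 45037 probe sets (11.7%), and for 1914 without late training arrays 22 and 27, which lie farthest from the median actin difference. The actin difference was -0.4 in 22 late arrays, -0.5 in 15 and -0.6 in 10, and its range came mainly from training arrays 22 (-2.3) and 27 (-1.1). A slope that was not called therefore says little, and slopes given for single genes include both of those arrays. Among the 13 early arrays limma called 0, with 2263 at an unadjusted p below 0.05. Of 5369 above-median genes called in both cohorts, the slope was not called in 4655, was called with the same sign in 304 and with the opposite sign in 410. Of all above-median genes, 471 (4.43%) had a rising and 830 (7.81%) a falling slope, and without late training arrays 22 and 27 these were 507 (4.77%) and 286 (2.69%). Rising slopes were called in 9 of 39 genes of complexes II to V (23.1%) and in 6 of 31 proteasome subunits (19.4%), with 2 and 1 falling, but without arrays 22 and 27 in 2 and 1, with 1 and 0 falling. Of 76 mitochondrial ribosomal proteins 5 rose and 4 fell, of 44 cytosolic ribosomal proteins 3 rose and 0 fell, and slopes were called in 0 genes of the T cell, B cell and neutrophil granule lists. Zinc finger genes had falling slopes in 44 of 305 (14.4%) and rising ones in 7, and in 4 and 0 without arrays 22 and 27. Genes of mRNA decay had falling slopes in 8 of 46 (17.4%), and in 6 without those arrays. Btg2 had the steepest called slope among the genes described here, 1.53 per unit of the actin difference (adjusted p = 1.65e-07), and its late minus early difference went from 1.76 to 0.56 with the actin covariate. Psme1 had a slope of 0.80 (adjusted p = 0.000111), Prf1 of 0.50 (adjusted p = 0.000146) and Snhg8 of -0.77 (adjusted p = 0.000776), each of the same sign as its late minus early difference.

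Other genes differed between the groups against their slope. Nprl2, of the GATOR complex, was higher by 2.20 ± 0.12 in late arrays (adjusted p = 1.07e-24) and had a slope of -0.58 (adjusted p = 0.0174), so that the difference was 2.70 with the actin covariate. Ints1, a scaffold of the Integrator complex, was higher by 1.92 with a slope of -0.72 (adjusted p = 0.0104), and Scaf1, Sbf1, Mgll and Pcnx3 followed the same pattern with slopes between -0.57 and -0.48. Among falls, the calcium pump Atp2b4 had a slope of 1.03 (adjusted p = 0.0408) and changed by -1.99, or -2.85 with the covariate, and Mcm9, Ankrd52, Luc7l, Trp53rkb and Pfas likewise had rising slopes. Genes with a slope that had an adjusted p of at least 0.5 included Gnb2 (-0.05), Prmt1 (0.04), Stn1 (0.06), Mydgf (0.15), Klf5 (0.08) and Bcat2 (-0.13) among rises, and Ces2g (0.39), Ccdc112 (0.01), Zfp934 (0.16) and Gas2l3 (0.23) among falls. With most late arrays at nearly the same actin difference, such a slope does not show that a gene is independent of it.

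The 18S signal sorted other classes than the actin difference did. Within late arrays 8310 probe sets rose with 18S (18.5%) and 7487 fell (16.6%), and without late validation arrays 9 and 19 these were 3920 (8.7%) and 3629 (8.06%). Of above-median genes 1531 (14.4%) rose and 3420 (32.2%) fell over all late arrays. Erythroid genes rose in 29 of 30 and fell in 0, and in 28 and 0 without late validation arrays 9 and 19. Platelet genes rose in 21 of 24, and in 17 without those arrays. Mitochondrial ribosomal proteins fell in 41 of 76 and nucleolar genes in 36 of 65, but in 10 and 6 without those arrays, and SR and hnRNP genes fell in 29 and 15 of 50. Neutrophil granule genes fell in 4 of 22 and in 8 without them. Whether 18S signal followed how the RNA was handled was not tested.

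Probe sets of the same gene did not always move alike. Of 9010 genes with 2 or more probe sets, 2169 (24.1%) had probe sets called in opposite directions, and 82 (0.91%) had such calls beyond 1 in each direction. Hnrnpu, an RNA and chromatin binding protein, has 5 probe sets, of which 2 fell, with differences of -0.75 and -0.74, and 3 rose, with differences of 0.74, 0.71 and 0.79. Htatsf1 changed by -1.85 in its brightest probe set, while its 2 dim ones did not pass the test (0.07 and 0.13). Aldoa rose in 4 of its 5 probe sets, by 1.26 to 1.93, and the dimmest gave 0.26 (adjusted p = 0.0674). Dhx9 was lower in all 3 of its probe sets, with differences of -1.88, -0.94 and -0.28. Riok2, Mga and Mcm9 fell in their brightest probe sets (-1.81, -0.88 and -1.35), while a dimmer one of each was called higher (0.82, 1.475 and 1.04). Mydgf and Itgb3, as given, and Mrps14, Klf5, Cnot7 and Crebbp, among others, also had probe sets called both ways. Gene values above are those of the brightest probe set of each gene unless another is named, so those of such genes hold for that probe set alone.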

How the data were processed

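Log2 expression values of 93 Affymetrix mouse arrays, deposited by the authors after RMA, were used as deposited, with no version of RMA named. The 45101 probe sets included 64 controls, which were kept out of the tests, leaving 45037. Of these 34945 carried 1 gene symbol, 932 several and 9160 none, and the brightest probe set stood for each of 18193 genes. Groups came from the sample titles. Late minus early differences were fitted with limma 3.58.1 in R 4.3.3 (lmFit and eBayes with an intensity trend, cohort as covariate, two-sided, Benjamini-Hochberg over 45037 probe sets, adjusted p below 0.05), and SE is that of the fit. The same fit was run per cohort, with a cohort interaction, and as a slope on control probe sets within the late arrays. The script was tested on simulated data. Named genes were Myc, the 12 largest changes per direction called in both cohorts (by the mean of both cohorts' differences), up to 4 genes per list by p, and the 6 largest per direction with an opposite or a flat actin slope (adjusted p of at least 0.5 when flat). From these, the text names about 100. The members and the gene lists were chosen with earlier results of these data known. A list of mitochondrially encoded transcripts matched 0 genes, and coding length was not analysed here. The number of arrays limits the precision.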

Additional observations from a re-analysis of the deposited data

Results flagged for a closer look

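Among 306 values of the 2 early groups tested for a single array far from its group, 30 were flagged, where chance flags about 1 in 20, and one array can flag many genes at once.

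Early validation array 2, which of the early arrays correlated least with the other tumor arrays, was flagged for low means of mRNA decay genes (8.5, others 8.91 to 9.08), splicing factors (9.70, others 9.98 to 10.24) and chromatin genes (9.02, others 9.29 to 9.49). In the same array Eif3d (7.27), Cnot7 (10.9) and Nprl2 (4.73) were low and Hbb-b2 was high (13.5, others 11.9 to 12.5). Early validation array 5 had the lowest actin difference of its group (-2, others -1.5 to -1.2) and high values of Farsa (7.52), Aldoa (12.3), Itgb2 (11.5) and Pcnx3 (6.42). Early validation array 6 had a low erythroid mean (7.71, others 9.32 to 10.09) with low Hemgn (5.99), a low mean of integrins and selectins (9.56), low Lyz2 (12.5) and H2-Ob (8.84), and high Mcm4 (11). Single flags fell on early validation array 7 for Ier2 (4.69), array 3 for Lsm3 (8.88) and array 8 for Ankrd52 (9.46).

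In the training cohort, early array 4 had a high 18S signal (11.63, others 10.75 to 10.99), a high mean of histones (8.71), a low mean of translation factors (8.77) and low Mcm4 (9.93). Early training array 5 was high for Itgam (7.44), Klf5 (5.53) and Ptbp3 (13.1) and low for Pfas (7.36). Early training array 1 had a low mean of BCL2 family genes (7.1, others 7.43 to 7.56).

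The late minus early difference itself differed between cohorts, by the interaction term, in 90 probe sets. The gene with the smallest p was Kank2, a dim gene at a mean level of 4.16, which changed by -1.85 in the training and 0.14 in the validation cohort. Prc1, a spindle protein, changed by -2.38 and -0.37 (interaction adjusted p = 0.00533). With only the probe sets above the median level tested, 2 were called.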

How the results depend on the processing

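The choice of fit changed the number of calls and, in some settings, the balance of their direction. The main fit called 11671 probe sets higher and 17795 lower, against 4164 and 3723 with 3 components of the endogenous controls as covariates. With the replicate number as a block these were 4212 and 3619. Alternatives that leave out late validation arrays 9 and 19, that use 18S, GAPDH or dap in place of actin, or that leave out late training arrays 22 and 27 from fits other than the actin slope were chosen after seeing the data. From 29466 probe sets called, the count was 15709 of 22518 when only above-median probe sets were tested, and 7887 with 3 components of the endogenous controls as covariates. With each array centred on its median, 10495 were higher and 20852 lower, and the median of all genes moved from -0.08 to -0.16. Leaving out each early array in turn gave 28616 to 29518. In the training cohort the above-median probe sets gave 12939 and the 3 components 6896. In the validation cohort the counts were 13202 for above-median probe sets, 6878 with the actin covariate, 12636 with the mean of 3 differences as covariate, and 2601 with the 3 components. The 90 interaction calls were 2 for above-median probe sets, 46 with array weights, 144 without late validation arrays 9 and 19, and 68 to 574 when 1 early array was left out (574 without training array 1, 136 without training array 5, 166 without validation array 2, 169 without validation array 3). Of the 5278 slope calls, 1914 were made without late training arrays 22 and 27 and 0 in the 13 early arrays (2263 at an unadjusted p below 0.05). Slope counts were 15797 on 18S and 19915 on dap, and 7549 and 14190 without late validation arrays 9 and 19. The share of genes with opposite probe sets, 24.1%, was 13.1% with the actin covariate and 2.22% with the 3 components. Lists above the median of all genes were 45, 26 against above-median genes, and 42 to 46 with 1 early array left out.

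Array numbers are shared between early and late arrays only across cohorts, for numbers 6 to 8, and their deviations correlated at 0.269, -0.128 and 0.202, with no array matching its own number best, so that the samples share only a number. With the replicate number as a block, 7831 probe sets and 13 interaction calls were found and 2.06% of genes had opposite probe sets. List medians with this block turned for mRNA decay (-0.14), snoRNA host genes (-0.37), the Myc network (0.14), B cells (-0.97), plasma cells (-0.37), NK cells (-0.41) and platelets (-0.21), and 14 of 100 genes lost the call. A block within a cohort could not be fitted.

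With the 3 components, list medians turned for neutrophil granules (-1.07), mature neutrophils (-0.49), monocytes (-0.13), platelets (-0.22), Toll-like receptor signaling (-0.017), ER stress (-0.06), cholesterol synthesis (-0.10) and autophagy (-0.086). The same covariates turned Cd14 (-0.38), Ebf1 (0.63), Tnfrsf13c (0.10), H2-Ob (0.24), Hbb-b2 (0.63), Btg2 (-0.95), Snhg8 (0.17), St3gal4 (-0.62) and Bmp2 (0.54), and 25 other genes lost the call. With the actin covariate the platelet median turned to -0.13 and 3 genes (H2-Ob, Hbb-b2, Gp9) lost the call, and among above-median probe sets the mammary median turned to 0.26. The same covariate took the genes called higher from 18 to 11 in neutrophil granules, 17 to 8 in monocytes, 8 to 3 in MHC class II, 7 to 1 in platelets, 14 to 9 in cholesterol synthesis and 5 to 3 in plasma cells. It took those called lower from 88 to 47 in zinc finger genes, 17 to 9 in the cell cycle, 14 to 5 in immediate early genes, 13 to 6 in nucleolar genes, 12 to 6 in erythroid genes, 8 to 5 in heat shock and in TGF-beta genes, 6 to 3 in cholesterol synthesis and 5 to 2 in T cells. Because the actin difference helped set the groups and the components include the actin probe sets, these changes cannot be told from the grouping itself. Their cause was not tested. No other setting changed the direction or call of the 100 genes checked, which left out dim mammary genes such as Krt14. Fits of a single cohort were not among these settings.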
